A study of Mus musculus with 8 samples.

Results

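Colon adenomas of mice treated with azoxymethane (AOM) and dextran sulfate sodium (DSS) were set against non-adenoma colon of the same treatment. The libraries were taken by their labels: 3 AOM/DSS adenomas and 1 AOM/DSS non-adenoma section, 4 of the 8 libraries of the series. AOM is a carcinogen that alkylates DNA, and DSS in the drinking water injures the colon lining. Wild-type C57BL/6J mice had been injected with AOM at 10 mg/kg when 6 to 7 weeks old, had then been through 3 cycles of 2% DSS, and were killed 70 days after AOM. The section had been through the same treatment as the adenomas, so the comparison is between lesion and treated colon, and no untreated colon enters it. The other 4 libraries, used for a test of the difference between models, are 3 adenomas and 1 non-adenoma section of untreated ApcMin/+ mice on a C57BL/6J background, 110 to 120 days old, which carry a mutant allele of Apc.

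The labels describe the AOM/DSS adenomas as wild type for Apc and as expressing a β-catenin that resists degradation, with point mutations found by Sanger sequencing between codons 32 and 41 of the protein. β-catenin carries the WNT signal to the nucleus. In resting cells a complex built on APC and AXIN marks it for destruction by phosphorylating residues near its start, and mutations there let it build up and bind TCF and LEF transcription factors. In the gut, WNT signalling maintains the dividing cells at the crypt base, while bone morphogenetic protein (BMP) signalling, strongest towards the lumen, accompanies differentiation into absorptive colonocytes, mucus-making goblet cells and hormone-making enteroendocrine cells. RNA came from whole pieces of tissue, which also hold muscle, nerve, vessels, fibroblasts and immune cells. In such bulk samples fewer cells of a type and less RNA per cell cannot be told apart. With 1 section, and no label saying which mouse gave it or each adenoma, every comparison rests on the spread between the adenomas, and the p-values speak for the spread of these libraries alone, part of which may be technical.

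The promoters of Myl9 and Sp5 are shown because each holds the motif searched for in its gene group. Myl9 fell and Sp5 rose. Myl9, which encodes a regulatory light chain of smooth muscle myosin, stood at 44.6, 39.9 and 25.3 CPM in the adenomas, against 605 CPM in the section. Sp5, which encodes a transcription factor induced by WNT signalling, stood at 27.5, 16.5 and 32.4 CPM in the adenomas, against 3.65 CPM in the section. The RefSeq windows (GRCm38.p6) run from 250 bases before to 50 bases after the annotated start and are printed 5′ to 3′ on the gene's strand, with the motif in capitals.
Myl9, chr2:156775214-156775513, plus strand: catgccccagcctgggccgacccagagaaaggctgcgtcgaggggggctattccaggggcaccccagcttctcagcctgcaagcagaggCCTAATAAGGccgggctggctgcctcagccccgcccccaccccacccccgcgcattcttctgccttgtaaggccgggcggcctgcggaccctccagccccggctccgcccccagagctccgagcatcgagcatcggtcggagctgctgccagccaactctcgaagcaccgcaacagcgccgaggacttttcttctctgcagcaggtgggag
Sp5, chr2:70474673-70474972, plus strand: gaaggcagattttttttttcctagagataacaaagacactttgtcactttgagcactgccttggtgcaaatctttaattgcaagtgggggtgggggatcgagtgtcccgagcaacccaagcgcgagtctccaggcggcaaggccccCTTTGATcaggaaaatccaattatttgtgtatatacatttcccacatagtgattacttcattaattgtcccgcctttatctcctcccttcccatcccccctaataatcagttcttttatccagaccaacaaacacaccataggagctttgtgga
The capitals in Myl9 mark a CArG box, the letters bound by serum response factor in muscle genes, at -161 to -152 from the start. The CArG search, on both strands, was for CC, then 6 letters each A or T, then GG. Those in Sp5 mark CTTTGAT at -104 to -98, a core sequence of TCF and LEF factors, also searched as ATCAAAG. Of 32851 promoters of 300 bases, 1.63% held a CArG box and 3.73% the TCF letters. Of 18 promoters found for 17 of the 21 smooth muscle genes on the list used below, 2 held a CArG box (11.1%), those of Myl9 and Srf. The TCF letters were in 1 of these 18 (5.56%), a promoter of Hspb6. Of 25 promoters found for 18 of the 28 WNT inhibitor and transcription factor genes, 1 held the TCF letters (4.0%), that of Sp5, and 2 held a CArG box (8.0%). A match is a description of letters in these windows.

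The 4 libraries held 18156741 to 22097184 counts, and all 8 held up to 22719895. Levels are given as CPM (counts scaled to library size with TMM factors). Where a library had no count of a gene, up to 3 counts are allowed by counting error, which is 0.128 to 0.16 CPM here. Epithelial markers were present in all 4 libraries: Epcam stood at 1351, 1165 and 1570.3 CPM in the adenomas, against 1479 CPM in the section, and Cdh1, which encodes E-cadherin, at 856, 794 and 788 CPM in the adenomas, against 916 CPM in the section. Of 21 general epithelial genes, 14 had all 3 adenomas below the section and 3 above it, with a median log2 fold change of -0.31. Their summed levels were 13551, 11471 and 12056 CPM in the adenomas, against 18743 CPM in the section. The median absolute log2 difference between adenomas was 0.275 for adenomas 1 and 2, 0.216 for 1 and 3 and 0.256 for 2 and 3, and 0.438, 0.454 and 0.481 for adenomas 1, 2 and 3 against the section. Of 17218 genes tested with edgeR's quasi-likelihood test, 862 passed a Benjamini-Hochberg adjusted p under 0.05 (5.01%), and only these are said to have risen, fallen or been called. Of these 409 were higher in the adenomas (2.38% of genes tested) and 453 lower (2.63%), and 363 and 416 of them changed at least 2-fold. Every called gene had all 3 adenomas on 1 side of the section. Among all genes tested, 7101 had them above it (41.2%) and 5382 below it (31.3%). The median log2 fold change over all genes tested was 0.138. Log2 fold changes are given as adenomas over section, with the SE after ±.

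The count of calls depended on single libraries. Without AOM/DSS adenoma 1, edgeR called 0 genes, with a smallest adjusted p of 0.0519 and 4737 genes at an unadjusted p under 0.05. It called 301 without adenoma 2 and 18 without adenoma 3. The ApcMin/+ adenomas enter through the shared estimate of spread, and leaving out adenoma 1, 2 or 3 of that model gave 132, 14 and 2055 calls. In each of these 6 fits all 862 called genes kept their direction and an unadjusted p under 0.05. Their log2 fold changes moved by a median of at most 0.0808 without an AOM/DSS adenoma. Without an ApcMin/+ adenoma, which does not enter these fold changes directly, the median was at most 0.00145. The 862 genes were selected in the same libraries and every fit kept the same section, so this is no independent check. With all 8 libraries, 5142 of the 17218 genes were at an unadjusted p under 0.05, and DESeq2 called 2895 genes. Each statement below that a gene rose or fell holds for the edgeR fit of all 8 libraries, and no call stands at the adjusted threshold with AOM/DSS adenoma 1 left out.

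**Figure D1:**
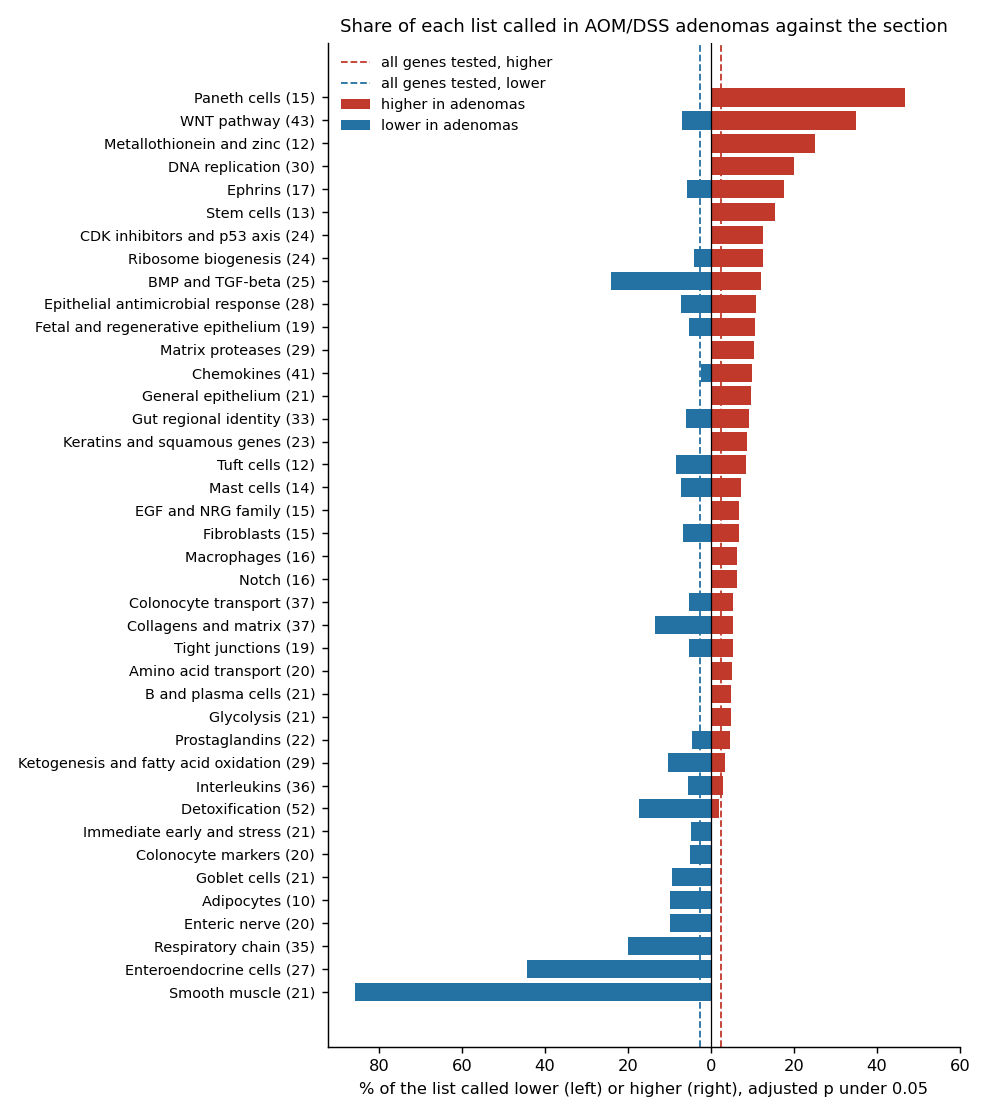
Share of each gene list called higher (red, to the right) or lower (blue, to the left) in AOM/DSS adenomas against the section, in percent of the tested genes given in brackets, with the shares over all genes tested as dashed lines at 2.38% and 2.63%. The longest bars are those of smooth muscle (18 of 21 lower), Paneth cell genes (7 of 15 higher) and enteroendocrine genes (12 of 27 lower), and lists with 0 calls are not drawn.

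Of 43 WNT pathway genes tested, 15 rose and 3 fell, with a median log2 fold change of 0.79. Those called were 7 higher and 2 lower of 17 inhibitors, 6 higher and 0 lower of 11 transcription factors, and 2 higher and 1 lower of 11 ligands. Without adenoma 2, 14 rose and 2 fell, and without adenoma 3, 1 rose. Ctnnb1, which encodes β-catenin, stood at 1088, 1101 and 1433 CPM in the adenomas, against 764 CPM in the section. All 3 adenomas lay above the section, but the change did not pass (0.66 ± 0.25, adjusted p = 0.135). Counts do not separate mutant from normal transcripts, so they do not check the labelled mutation. The 4 destruction complex genes, Apc among them, were above the section in every adenoma, with no call and a median of 0.25.

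Among 17 feedback inhibitors 7 rose. Notum, a secreted enzyme that strips the lipid from WNT ligands, stood at 173, 190.1 and 514 CPM in the adenomas, against 19.9 CPM in the section. The highest value was that of adenoma 3, and the lowest adenoma lay several times above the section (3.88 ± 0.78, SE, adjusted p = 0.046). Dkk2, of the Dickkopf family of WNT modulators, stood at 93.3, 44.6 and 58 CPM in the adenomas, against 4.75 CPM in the section, with no overlap (3.78 ± 0.55, adjusted p = 0.030). Axin2, a scaffold of the destruction complex, stood at 347, 257 and 420.0 CPM in the adenomas, against 52.1 CPM in the section (2.71 ± 0.40). Nkd1, Apcdd1, Rnf43 and Znrf3, which also dampen the pathway, rose by 2.54, 2.60, 2.57 and 1.75. All 7 had every adenoma above the section.

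The ligand genes Wnt10a and Wnt6 rose as well. Wnt10a stood at 21.2, 14.2 and 29.7 CPM in the adenomas, against 2.30 CPM in the section (3.23 ± 0.51, adjusted p = 0.0317), and Wnt6 at 23.2, 20.6 and 38.2 CPM in the adenomas, against 3.70 CPM in the section (2.88 ± 0.49). For both, the lowest adenoma was over 5-fold above the section. Of 11 transcription factor genes 6 rose: Lef1 (2.73 ± 0.34), Tcf7 (2.57 ± 0.30), Sp5 (2.80 ± 0.47), Tbx3 (2.86 ± 0.40), Sox4 (2.17 ± 0.42) and Myc (1.18 ± 0.18). Lef1 and Tcf7 are the DNA-binding partners of β-catenin. Adenoma 2 was the lowest of the adenomas for Axin2, Lef1, Sp5, Wnt10a and Sox4.

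3 genes of the list moved the other way. Sfrp2, a secreted WNT-binding protein of stromal cells, stood at 1.03, 0.373 and 0.469 CPM in the adenomas, against 18.8 CPM in the section (-4.89 ± 0.56, adjusted p = 0.024). Rspo3, an R-spondin that amplifies the WNT signal, stood at 0.300, 0.373 and 0.640 CPM in the adenomas, against 9.51 CPM in the section (-4.42 ± 0.68). Nkd2, a relative of Nkd1, stood at 1.63, 2.61 and 1.02 CPM in the adenomas, against 14.7 CPM in the section (-3.07 ± 0.45). The adenomas lay far below the section for all 3 genes. Smooth muscle genes fell in the same libraries, with summed levels of 873 to 1113 CPM in the adenomas and 12801 CPM in the section, and their part in these falls was not tested.

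**Figure D2:**
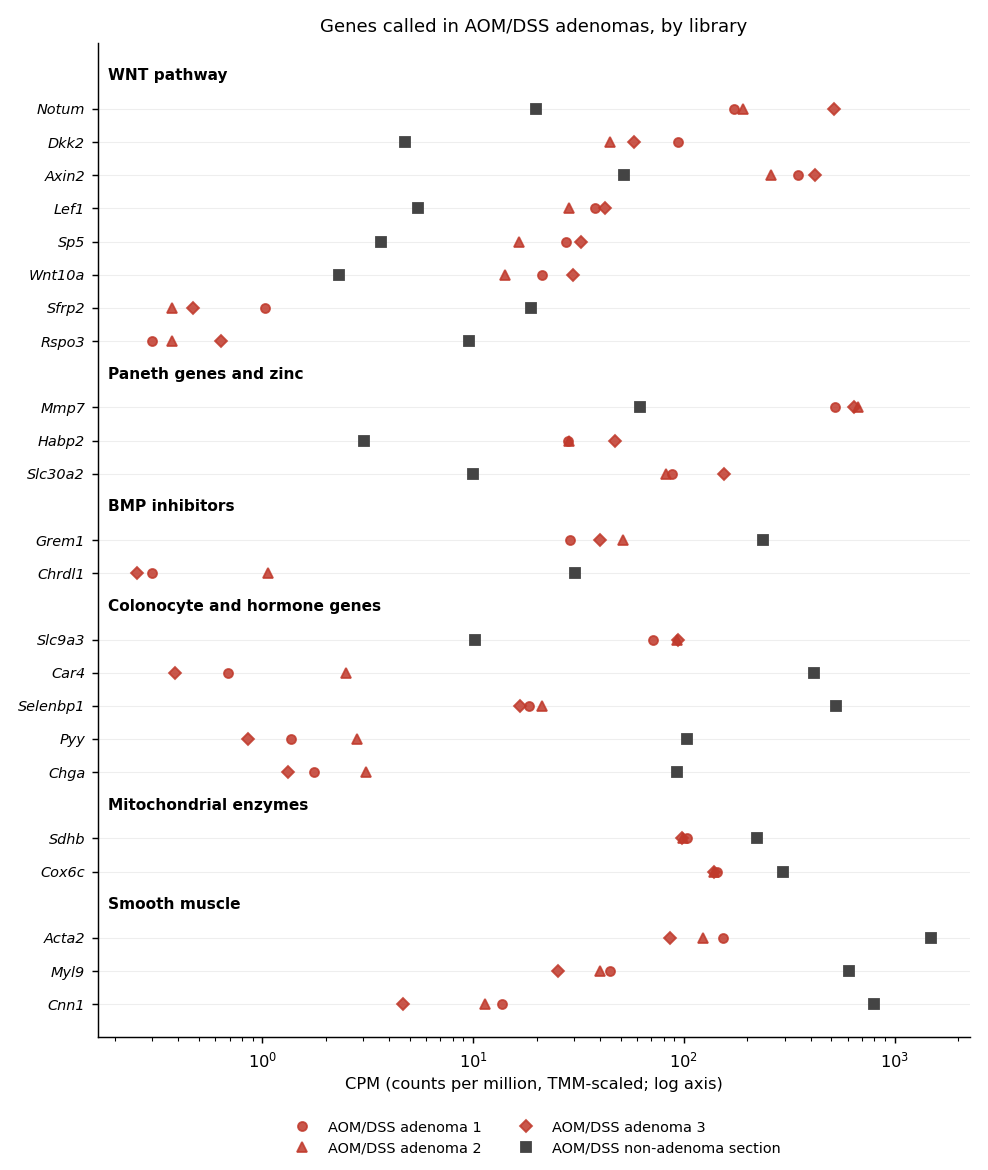
Level of 23 genes called in AOM/DSS adenomas in each of the 4 libraries, in CPM on a log axis, with red symbols for adenomas 1 to 3 and dark squares for the section. In every row the 3 adenomas lie on 1 side of the section: Notum, for example, at 173, 190.1 and 514 against 19.9 CPM, and Cnn1 at 13.6, 11.4 and 4.65 against 794 CPM.

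Intestinal stem cell markers were mostly above the section. Of 13, 11 had all 3 adenomas above it, and 2 rose: Cd44, a cell adhesion receptor (2.08 ± 0.40), and Bmi1, a polycomb gene (1.00 ± 0.19). The median was 1.00. Lgr5, the receptor that marks crypt base stem cells, stood at 17.5, 32.1 and 118 CPM in the adenomas, against 3.85 CPM in the section. Its adenomas spread over more than a 6-fold range, all above the section, and it did not pass (3.86 ± 1.27, adjusted p = 0.106). Ascl2, a transcription factor of these cells, was at 50.5, 28.7 and 50.4 CPM in the adenomas, against 9.66 CPM in the section, and did not pass (adjusted p = 0.054).

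In other signalling families, 1 of 15 EGF and neuregulin genes, 1 of 16 Notch genes and 3 of 17 Eph and ephrin genes rose, against 2.38% of all genes tested. Tgfa, an EGF receptor ligand, rose (1.17 ± 0.20). The 5 genes grouped as receptors and their regulators all lay below the section in each adenoma, against 31.3% of all genes tested, without a call. Among these 5 were the receptor genes Egfr, Erbb2 and Erbb3, and Errfi1, which encodes an inhibitor of EGFR. Jag2, a Notch ligand, rose (1.86 ± 0.37). Among Eph receptors, which position cells along the crypt, Ephb6 (1.99 ± 0.23), Epha2 (1.44 ± 0.30) and Epha4 (1.23 ± 0.24) rose, and the ligand gene Efna1 fell (-1.32 ± 0.24). Ephb6 stood at 45.2, 34.5 and 46.7 CPM in the adenomas, against 10.6 CPM in the section. The adenomas differed little among themselves for Ephb6.

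Of 10 BMP inhibitor genes 3 fell and 0 rose, with a median of -0.95. They encode secreted proteins that bind BMPs. Grem1, gremlin 1, stood at 28.8, 51.4 and 40.1 CPM in the adenomas, against 237 CPM in the section (-2.56 ± 0.48, adjusted p = 0.0407). Chrdl1, chordin-like 1, stood at 0.300, 1.07 and 0.256 CPM in the adenomas, against 30.4 CPM in the section (-5.84 ± 1.06). The section was over 4 times the highest adenoma for both. These inhibitors are known from the muscle and stroma beneath the crypts, and the fall of smooth muscle genes given above moved with them. Its part was not tested.

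Among 11 BMP and TGF-β ligand genes, Inhbb, an activin subunit (2.62 ± 0.45), and Bmp5 (1.15 ± 0.24) rose, and Tgfb2 (-1.80 ± 0.34) and Tgfb3 (-2.10 ± 0.44) fell. Inhbb stood at 9.87, 11.5 and 15.5 CPM in the adenomas, against 2.00 CPM in the section. The lowest adenoma was over 4-fold above the section. Of 4 target genes, Id2 rose (1.33 ± 0.27) and Id4 fell (-4.03 ± 0.68). Both encode inhibitors of basic helix-loop-helix factors. Over the 25 genes of the family 3 rose and 6 fell, with a median of 0.31, or 0.12 without adenoma 1.

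Paneth cell genes were higher. Paneth cells are antimicrobial cells of the small intestinal crypt base that normal mouse colon lacks. Of 15 genes 7 rose and 0 fell, with a median of 3.22, and 14 had all 3 adenomas above the section. Mmp7, matrilysin, which activates the defensins, stood at 523, 670.2 and 638 CPM in the adenomas, against 61.8 CPM in the section (3.31 ± 0.55, adjusted p = 0.0328). Itln1, an intelectin that binds microbial sugars, was at 271, 199 and 279 CPM in the adenomas, against 28 CPM in the section (3.16 ± 0.67). Habp2, a serine protease, was at 28.1, 28.4 and 47.1 CPM in the adenomas, against 3.05 CPM in the section (3.50 ± 0.58). Adenomas and section did not overlap for any of the 3. The defensin genes Defa17, Defa21, Defa22 and Defa24 rose by 3.22, 3.85, 4.46 and 3.42, but reads may be split among these closely similar genes, so their values are uncertain. Without adenoma 2, 1 of the 15 was called, without adenoma 3, 0, and DESeq2 called 13.

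Of 12 zinc-handling genes 3 rose and 0 fell, with a median of 0.39. Slc30a2, a zinc exporter of secretory granules, stood at 87.4, 82.2 and 154 CPM in the adenomas, against 10.0 CPM in the section (3.43 ± 0.50), and Mt4, a metallothionein, at 71.4, 37.7 and 43.6 CPM in the adenomas, against 6.66 CPM in the section (2.94 ± 0.49). The importer gene Slc39a10 rose less (1.39 ± 0.23). Slc7a11, which imports cystine for glutathione synthesis, stood at 104, 75.5 and 54.5 CPM in the adenomas, against 16.5 CPM in the section (2.24 ± 0.45). Adenoma 1 was the highest for Slc7a11 and Mt4. Among 20 amino acid transporters Slc7a11 alone was called.

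Among epithelial junction genes, Cldn4 rose and Cldn8 fell. Both are claudins, which set the ion permeability of tight junctions. Cldn4 stood at 267, 181 and 246 CPM in the adenomas, against 47.8 CPM in the section (2.27 ± 0.32), and Cldn8 at 7.12, 5.28 and 2.56 CPM in the adenomas, against 74.6 CPM in the section (-3.90 ± 0.84). Of 19 junction genes no other was called. Krt23, a keratin induced in several epithelia, stood at 85.9, 73.9 and 135 CPM in the adenomas, against 13.8 CPM in the section (2.83 ± 0.47). The other called keratin, Krt6a, had 50, 29 and 22 counts in the adenomas and 0 counts in the section, which allows up to 3.

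Most colonocyte genes lay below the section. Of 37 transport genes 29 had all 3 adenomas below the section, with a median of -1.68, but 2 fell and 2 rose. Car4, a membrane carbonic anhydrase, stood at 0.687, 2.51 and 0.384 CPM in the adenomas, against 412 CPM in the section (-8.48 ± 1.76, adjusted p = 0.0484). Aqp8, a water channel, stood at 0.0858, 1.65 and 0.256 CPM in the adenomas, against 245 CPM in the section (-8.61 ± 1.72). Adenoma 2 held the most of both transcripts among the adenomas, still over 100-fold below the section. Without adenoma 2 neither passed.

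Against this direction, Slc9a3, an apical sodium and proton exchanger, stood at 71.4, 92.3 and 93.4 CPM in the adenomas, against 10.3 CPM in the section (3.06 ± 0.34, adjusted p = 0.024). Slc16a3, which exports lactate, was at 94.2, 94.8 and 92.2 CPM in the adenomas, against 23.3 CPM in the section (2.01 ± 0.33). The 3 adenomas were close together for Slc16a3. The chloride exchanger gene Slc26a3 stood at 1.85, 5.23 and 1.36 CPM in the adenomas, against 273 CPM in the section, and did not pass (adjusted p = 0.076). Of 20 further colonocyte markers 17 had all adenomas below the section and 1 fell, Selenbp1, a sulfur metabolism gene, at 18.4, 21.2 and 16.7 CPM in the adenomas, against 527 CPM in the section (-4.81 ± 0.86).

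Goblet cell genes were far below the section but spread widely. Of 21, 19 had all 3 adenomas below it, with a median of -3.27, and 2 fell: Creb3l1, a secretory transcription factor, at 37.9, 25.8 and 25.6 CPM in the adenomas, against 321 CPM in the section (-3.43 ± 0.66), and Bcas1 (-3.40 ± 0.67). Muc2, the main colonic mucin, stood at 369.7, 346 and 76.9 CPM in the adenomas, against 4043 CPM in the section. Adenomas 1 and 2 held several times the Muc2 of adenoma 3, and it did not pass (-3.94 ± 1.54, adjusted p = 0.147). Zg16, a mucus lectin, was at 37.9, 62.5 and 4.65 CPM in the adenomas, against 4884 CPM in the section, and did not pass either (adjusted p = 0.0943).

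Enteroendocrine genes were lower. Of 27, 12 fell and 0 rose, and 25 had all adenomas below the section, with a median of -5.50, or -4.62 with 2 genes that had no count in the adenomas set at their bound. Pyy, peptide YY, which slows gut transit, stood at 1.37, 2.83 and 0.853 CPM in the adenomas, against 103 CPM in the section (-5.96 ± 0.62, adjusted p = 0.023). Chga, a granule protein, was at 1.76, 3.09 and 1.32 CPM in the adenomas, against 92.6 CPM in the section (-5.50 ± 1.06), and Cpe, which trims prohormones, at 5.54, 11 and 7.89 CPM in the adenomas, against 137 CPM in the section (-4.07 ± 0.44). Adenoma 2 was the highest adenoma for all 3, and far below the section. The hormone gene Insl5 had 1, 6 and 0 counts in the adenomas and 1652 in the section.

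The lineage factors of these cells were near the limit of detection in the adenomas. Neurog3, which starts the lineage, had 0.0429, 0.0534 and 0 CPM in the adenomas, against 2.25 CPM in the section, and Neurod1, which follows it, had 0.0429, 0 and 0 CPM in the adenomas, against 3.45 CPM in the section. A single count is worth 0.043 to 0.053 CPM in these libraries. Both fell, as did Nkx2-2, at 0, 0 and 0.0853 CPM in the adenomas, against 3.75 CPM in the section. Tph1, of serotonin synthesis, was not near the limit, at 1.63, 1.23 and 1.54 CPM in the adenomas, against 9.56 CPM in the section (-2.70 ± 0.57). Without adenoma 2, 2 of the 27 genes were called, and without adenoma 3, 0. DESeq2 called 19.

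Detoxification genes were mostly lower. Of 52, 9 fell and 1 rose, with a median of -2.05, and 41 had all 3 adenomas below the section. Mgst1, a microsomal glutathione transferase, stood at 9.18, 15.1 and 14.5 CPM in the adenomas, against 68.2 CPM in the section (-2.40 ± 0.27, adjusted p = 0.024). Ugt1a1, which conjugates bilirubin and drugs, was at 4.03, 5.71 and 6.48 CPM in the adenomas, against 53.6 CPM in the section (-3.31 ± 0.43), though the Ugt1a genes share exons and their counts are uncertain. The cytosolic transferases Gstm3 and Gstm1 fell by 3.48 and 1.91 on the log2 scale and the cytochrome gene Cyp2d26 fell by 2.14. Ahr, the aryl hydrocarbon receptor, which senses dietary and microbial ligands, rose, at 44.3, 43.3 and 45.7 CPM in the adenomas, against 24.4 CPM in the section (0.87 ± 0.14). Ahr differed little among the adenomas. Without adenoma 2, 4 of the 52 fell and 0 rose.

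Respiratory chain genes were lower by a small amount. Of 35 respiratory chain genes 33 had all 3 adenomas below the section, with a median of -0.61, and 7 fell. Sdhb, of succinate dehydrogenase, stood at 104, 98.6 and 97.6 CPM in the adenomas, against 221 CPM in the section (-1.15 ± 0.17). Cox6c, a cytochrome oxidase subunit, was at 143, 138 and 139 CPM in the adenomas, against 294 CPM in the section (-1.07 ± 0.17). For both, the adenomas were close together and below the section. Cox5b (-1.01), Cox8a (-1.20), Cyc1 (-0.86), Uqcrfs1 (-0.96) and Ndufb8 (-0.88) were the others that fell. Without adenoma 2, 0 of the 35 were called.

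The genes of mitochondrial β-oxidation Acads and Hadhb fell. Acads, a short-chain acyl-CoA dehydrogenase, stood at 56.4, 52.7 and 48.7 CPM in the adenomas, against 117 CPM in the section (-1.15 ± 0.19). Hadhb, a subunit of the trifunctional protein, stood at 102, 94.3 and 85.5 CPM in the adenomas, against 175 CPM in the section (-0.89 ± 0.15). Over 29 genes of ketogenesis and fatty acid oxidation 1 rose and 3 fell, with a median of -0.47.

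Idh1, the cytosolic isocitrate dehydrogenase, was among the most abundant genes that rose, at 628, 537 and 524 CPM in the adenomas, against 235 CPM in the section (1.26 ± 0.24). Txn1, thioredoxin, was among the most abundant that fell, at 442, 412 and 402 CPM in the adenomas, against 1019 CPM in the section (-1.29 ± 0.25). Neither overlapped between adenomas and section. Of 21 glycolysis genes 1 rose, the lactate exporter Slc16a3 already given, and 0 fell. Their median of -0.15 turned to 0.01 when libraries were scaled to epithelial genes, and was -0.027 without adenoma 3.

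Genes of regional identity changed one by one. Onecut2, a transcription factor with known roles in the proximal gut, liver and pancreas, stood at 79.7, 52.5 and 151 CPM in the adenomas, against 2.55 CPM in the section (5.21 ± 0.92, adjusted p = 0.0357). Sox21 was at 69, 64.2 and 95.7 CPM in the adenomas, against 14.5 CPM in the section (2.40 ± 0.39), and Prdm1, a repressor of the fetal gut epithelium and of plasma cells, at 23.3, 20.4 and 16 CPM in the adenomas, against 6.91 CPM in the section (1.53 ± 0.29). All 3 genes had every adenoma above the section. Foxa2, an endoderm factor, fell (-1.51 ± 0.31). Hoxa13, a Hox gene of the hindgut's end, stood at 7.94, 9.23 and 6.95 CPM in the adenomas, against 37.8 CPM in the section (-2.23 ± 0.19, adjusted p = 0.0147). It was the 1 called gene of 11 posterior Hox genes, whose median was 0.19. Hoxb13, another of them, stood at 230.2, 178 and 181 CPM in the adenomas, against 332 CPM in the section, and did not pass (adjusted p = 0.0745).

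Of 19 genes known from fetal or regenerating gut, 2 rose and 1 fell. Msln, mesothelin, rose to 6.39, 10.5 and 5.29 CPM in the adenomas, against 0.400 CPM in the section (4.19 ± 0.65). Ankrd1, a target of YAP, fell to 0.129, 0.213 and 0.469 CPM in the adenomas, against 3.80 CPM in the section (-3.77 ± 0.60). Its counts were 3, 4 and 11 in the adenomas, near the limit of detection in adenomas 1 and 2, and 76 in the section. The median of the list was 0.36, or 0.55 without adenoma 2.

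DNA replication genes were higher by a small amount. Of 30, 28 had all adenomas above the section and 6 rose, with a median of 0.81. Mcm4, of the replicative helicase, stood at 82.6, 77.8 and 78.5 CPM in the adenomas, against 33.7 CPM in the section (1.24 ± 0.21), and Rrm2, which makes deoxynucleotides, at 75.2, 72.2 and 54.5 CPM in the adenomas, against 22.6 CPM in the section (1.57 ± 0.33). The helicase genes Mcm2, Mcm3 and Mcm7 and the loading factor gene Mcm10 rose by 1.28, 1.24, 1.04 and 1.35. All 30 mitosis genes had every adenoma above the section, with a median of 0.56, and edgeR called 0 of them, with 10 at an unadjusted p under 0.05, all higher. DESeq2 called 5, all higher. Over all 17218 genes tested, 5142 were at an unadjusted p under 0.05 in either direction, and DESeq2 called 1438 higher and 1457 lower. Top2a, a topoisomerase of dividing cells, was at 234, 292 and 298 CPM in the adenomas, against 131 CPM in the section (adjusted p = 0.098).

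Ccnd1, cyclin D1, rose (1.33 ± 0.25), as did Trp53, at 158, 133 and 175 CPM in the adenomas, against 64.9 CPM in the section (1.26 ± 0.23), and its target Trp53inp1 (1.33 ± 0.24). These were 3 of 24 genes of the cyclin inhibitor and p53 axis. Ribosome biogenesis genes had a median of 0.81, with 22 of 24 above the section in every adenoma. The RNA polymerase I subunit genes Polr1a and Polr1b rose by 1.08 and 0.87, and Mybbp1a by 0.90. Utp20, of the small subunit processome, fell, at 46.8, 51.4 and 59.5 CPM in the adenomas, against 124 CPM in the section (-1.24 ± 0.17).

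Smooth muscle genes had the highest share of calls among the lists. Of 21, 18 fell and 0 rose, and all 21 had every adenoma below the section, with a median of -4.05. Acta2, smooth muscle actin, stood at 153, 123 and 85.7 CPM in the adenomas, against 1481 CPM in the section (-3.62 ± 0.44, adjusted p = 0.0245). Myl9, whose promoter is printed above, changed by -4.05 ± 0.46, and the calponin gene Cnn1 stood at 13.6, 11.4 and 4.65 CPM in the adenomas, against 794 CPM in the section (-6.33 ± 1.15). Adenoma 3 was the lowest for Acta2, Myl9 and Cnn1. Tpm1, a tropomyosin made in many cells, averaged 432 ± 37.2 CPM in the adenomas, against 1319 CPM in the section (SD, n = 3), a log2 fold change of -1.61 ± 0.17. Flna, the actin crosslinker filamin A, averaged 367 ± 28.9 CPM in the adenomas, against 1443 CPM in the section (SD, n = 3; -1.97 ± 0.19). Both are widely expressed cytoskeletal genes. Srf, the factor that binds CArG boxes, stood at 47.9, 52.7 and 49.1 CPM in the adenomas, against 69.6 CPM in the section, and did not pass (adjusted p = 0.0993). Without adenoma 2, 7 of the 21 were called, without adenoma 3, 0, and DESeq2 called 20.

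Nerve genes were lower and fibroblast markers moved both ways. Of 20 enteric nerve genes 19 had all adenomas below the section, with a median of -3.20, or -2.79 with genes that had no count in the adenomas at their bound. Uchl1, a neuronal enzyme, and Kit, of pacemaker cells and mast cells, fell by 3.60 and 2.27 on the log2 scale. Among fibroblast markers Pdgfra rose, at 139, 114 and 126 CPM in the adenomas, against 53.9 CPM in the section (1.23 ± 0.19), and Cd34 fell, at 19, 23.4 and 22.6 CPM in the adenomas, against 56.4 CPM in the section (-1.38 ± 0.19). Both mark subsets of gut fibroblasts, and Cd34 also endothelium. Of 19 endothelial genes edgeR called 0, with a median of 0.11, or -0.013 without adenoma 2, 2 at an unadjusted p under 0.05 and 1 called by DESeq2.

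Of 37 matrix genes 5 fell and 2 rose. Fn1, fibronectin, stood at 317, 243 and 261 CPM in the adenomas, against 782 CPM in the section (-1.52 ± 0.19, adjusted p = 0.0248), and Tnc, tenascin C, at 33.2, 22.6 and 39.7 CPM in the adenomas, against 136 CPM in the section (-2.10 ± 0.32). Lum, lumican, stood at 2.45, 1.97 and 4.86 CPM in the adenomas, against 50.9 CPM in the section (-4.03 ± 0.63). The section was highest for these 3 genes. Fbln1 and Col14a1 fell by 1.42 and 1.70, while Col18a1, a basement membrane collagen, and Thbs1, thrombospondin 1, rose by 2.18 and 1.20. Itga5, the α5 subunit of the fibronectin receptor, stood at 25.3, 27.8 and 26.6 CPM in the adenomas, against 122 CPM in the section (-2.20 ± 0.16, adjusted p = 0.011). It lies outside the rule for named genes and was chosen after its values were seen. The same holds for Enah, an actin regulator, at 16, 19.2 and 16.5 CPM in the adenomas, against 81 CPM in the section (-2.23 ± 0.16).

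Proteases of the matrix rose in 3 of 21 cases. Mmp10, a stromelysin, stood at 89.5, 83.6 and 123 CPM in the adenomas, against 6.86 CPM in the section (3.85 ± 0.58), Adamts4, which cleaves proteoglycans, at 12, 7.58 and 8.10 CPM in the adenomas, against 2.10 CPM in the section (2.13 ± 0.42), and Mmp7 as given above. No inhibitor gene of 8 was called. Mmp13, a collagenase, was at 18.8, 27.1 and 29.5 CPM in the adenomas, against 3.70 CPM in the section, and did not pass (adjusted p = 0.0503).

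Over 41 chemokine and receptor genes 4 rose, against 2.38% of all genes tested, and 1 fell, with a median of 1.35, or 0.69 without adenoma 2. Cxcl14, an epithelial chemokine for myeloid cells, stood at 119, 108 and 96.3 CPM in the adenomas, against 19.4 CPM in the section (2.48 ± 0.20, adjusted p = 0.0139). Cxcl16, the ligand of CXCR6, was at 80.1, 124 and 85.2 CPM in the adenomas, against 24.1 CPM in the section (2.00 ± 0.37). Ccl28, an epithelial chemokine that draws IgA-secreting cells to mucosa, stood at 3.90, 9.23 and 4.31 CPM in the adenomas, against 166 CPM in the section (-4.85 ± 1.04). The adenomas did not overlap the section for any of the 3. The receptor genes Cx3cr1 and Ccr1, both of myeloid cells, rose, at 33.3, 46.5 and 32.7 CPM in the adenomas, against 10.0 CPM in the section (1.90 ± 0.29), and at 16.9, 31.1 and 18 CPM in the adenomas, against 4.45 CPM in the section (2.30 ± 0.49).

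Il1rl1, the receptor of interleukin 33, was at 61, 34.5 and 75.8 CPM in the adenomas, against 6.46 CPM in the section (3.15 ± 0.63). Il33 itself stood at 16.1, 26.6 and 45.1 CPM in the adenomas, against 4.05 CPM in the section, and did not pass (adjusted p = 0.0537). Il18 fell (-2.08 ± 0.43), as did Il11ra1 (-0.92 ± 0.16). Cpa3, a mast cell protease, rose, at 19.1, 15.3 and 20.9 CPM in the adenomas, against 4.55 CPM in the section (2.02 ± 0.39). Of 14 mast cell genes 1 rose and 1 fell, and 13 had every adenoma above the section, against 41.2% of all genes tested. Kit, a gene of both pacemaker cells and mast cells, fell, as given above. Apoe, a lipid carrier made by macrophages among others, was among the most abundant genes that rose, at 796, 1096 and 741 CPM in the adenomas, against 264 CPM in the section (1.73 ± 0.27). Neutrophil, T and NK cell, and interferon and MHC genes had medians of 2.05, 1.61 and 0.72, and edgeR called 0 of each. Without adenoma 2 these medians were 1.54, 1.00 and -0.015. At an unadjusted p under 0.05, 7 of 14, 6 of 23 and 3 of 45 were higher, and 1, 1 and 0 lower. DESeq2 called 8, 5 and 4. Over all 17218 genes tested, 5142 were at an unadjusted p under 0.05 and DESeq2 called 2895.

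**Figure D3:**
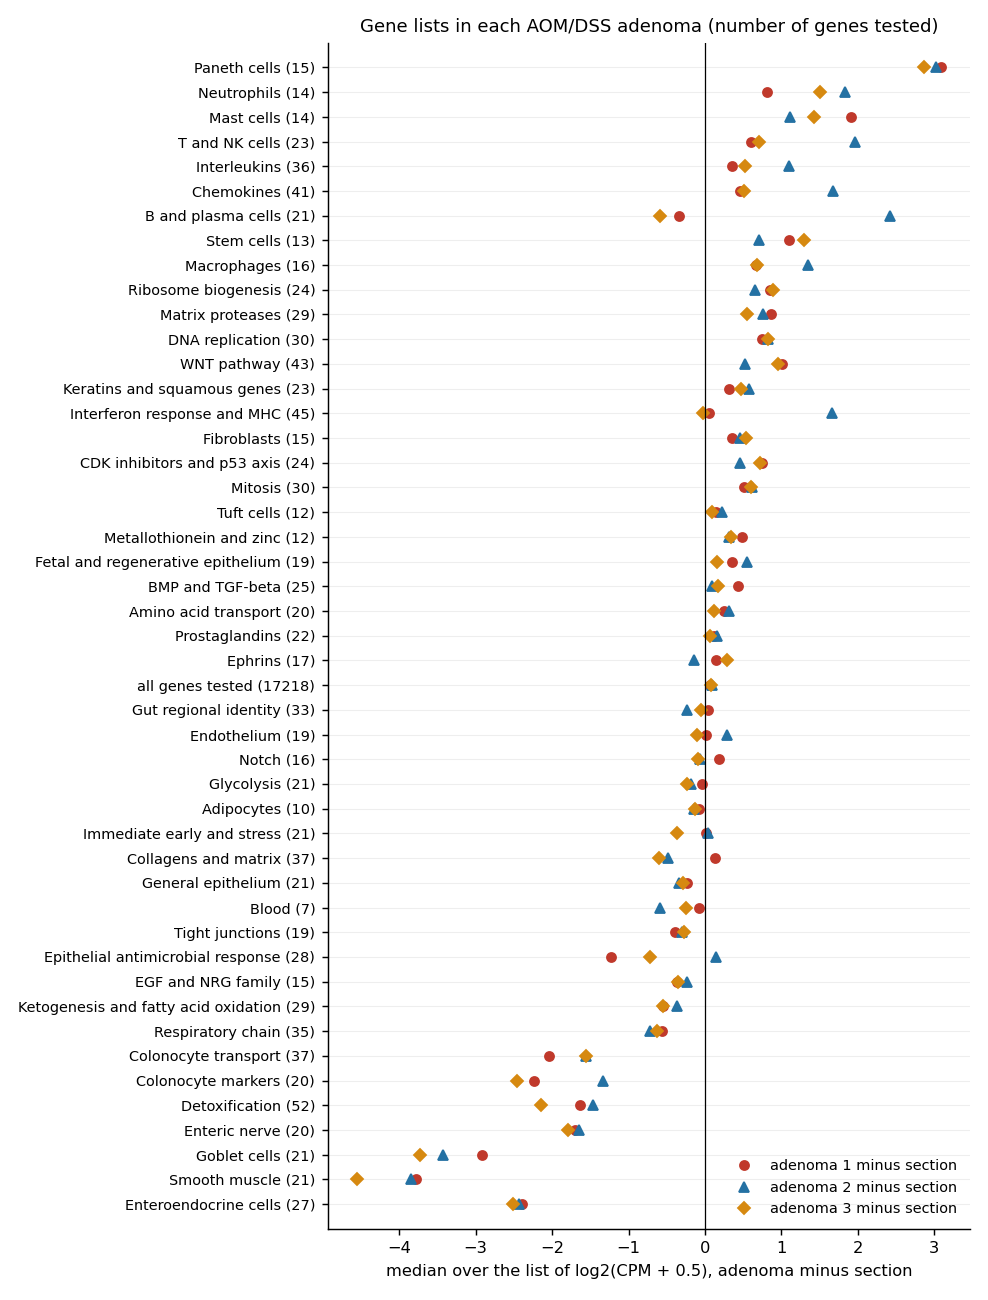
Median over each gene list of log2(CPM + 0.5) in adenoma 1 (red circles), adenoma 2 (blue triangles) or adenoma 3 (orange diamonds) minus the section, with the number of genes tested in brackets and lists ordered by their fitted median. Adenoma 2 stands apart in B and plasma cells (2.42, against -0.34 in adenoma 1 and -0.59 in adenoma 3) and in interferon response and MHC (1.66, against 0.05 and -0.03), while Paneth cell genes and smooth muscle keep 1 side in all 3; the added 0.5 draws lists of low genes, such as enteroendocrine cells, towards 0.

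The adenomas differed from each other mainly through adenoma 2. It had 257 genes at 5 CPM or more that stood over 4-fold above both other adenomas, against 16 such genes in adenoma 1 and 9 in adenoma 3. Of the 21 B and plasma cell genes 16 were among the 257. Ms4a1, which encodes the B cell surface protein CD20, was at 7.59, 85.9 and 9.17 CPM in adenomas 1, 2 and 3, against 12 CPM in the section. Adenomas 1 and 3 lay close to the section or below it.

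The same held for Pax5 and Ighm. Pax5, the B lineage factor, was at 4.21, 43.9 and 2.99 CPM in the adenomas, against 5.25 CPM in the section. Ighm, the IgM heavy chain, was at 46, 433 and 35.8 CPM in the adenomas, against 67.2 CPM in the section. In each, adenoma 2 was over 6-fold above the section. None of these 3 genes passed edgeR's test, and without adenoma 2 the fitted changes turned negative. Summed over the list, B and plasma cell genes held 3845, 14646 and 2592 CPM in adenomas 1, 2 and 3, against 4144 CPM in the section.

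Interferon and antigen presentation genes were also highest in adenoma 2. Cd74, the invariant chain of MHC class II, stood at 781, 1932 and 738 CPM in adenomas 1, 2 and 3, against 440.1 CPM in the section. Ido1, a tryptophan-degrading enzyme induced by interferon, stood at 8.54, 69.2 and 1.71 CPM in adenomas 1, 2 and 3, against 14.4 CPM in the section. Adenoma 2 was the highest library for both. The antimicrobial lectin genes Reg3g, at 20.1, 552 and 31.6 CPM in the adenomas, against 264 CPM in the section, and Reg3b, at 18.4, 304 and 28.4 CPM in the adenomas, against 546 CPM in the section, were high in adenoma 2 and the section and low in adenomas 1 and 3. The part of B cell genes in these differences was not tested.

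Some genes set adenomas 1 and 3 apart. Hoxd12, a posterior Hox gene, stood at 64.3, 0.160 and 0 CPM in adenomas 1, 2 and 3, against 5.70 CPM in the section, and Myl1, a myosin light chain of skeletal muscle, at 210.3, 18.7 and 4.01 CPM in adenomas 1, 2 and 3, against 0.701 CPM in the section. Adenoma 1 was the highest library for both. Muc6, a gastric gland mucin, was at 3.35, 23.6 and 49.8 CPM in adenomas 1, 2 and 3, against 1.80 CPM in the section, with adenoma 3 the highest. Goblet genes had wide spreads in other orders: Fcgbp stood at 583, 261 and 37.2 CPM in adenomas 1, 2 and 3, against 2828 CPM in the section, and Clca1 at 15.1, 71.1 and 3.67 CPM in adenomas 1, 2 and 3, against 1117 CPM in the section. Cd177, a surface protein also found on neutrophils, stood at 37.9, 245 and 657 CPM in adenomas 1, 2 and 3, against 713 CPM in the section, so that adenoma 3 was near the section. Clca3b, of the calcium-activated chloride channel regulators, stood at 44.8, 761 and 169 CPM in adenomas 1, 2 and 3, against 728 CPM in the section, and there adenoma 2 was near the section.

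**Figure D4:**
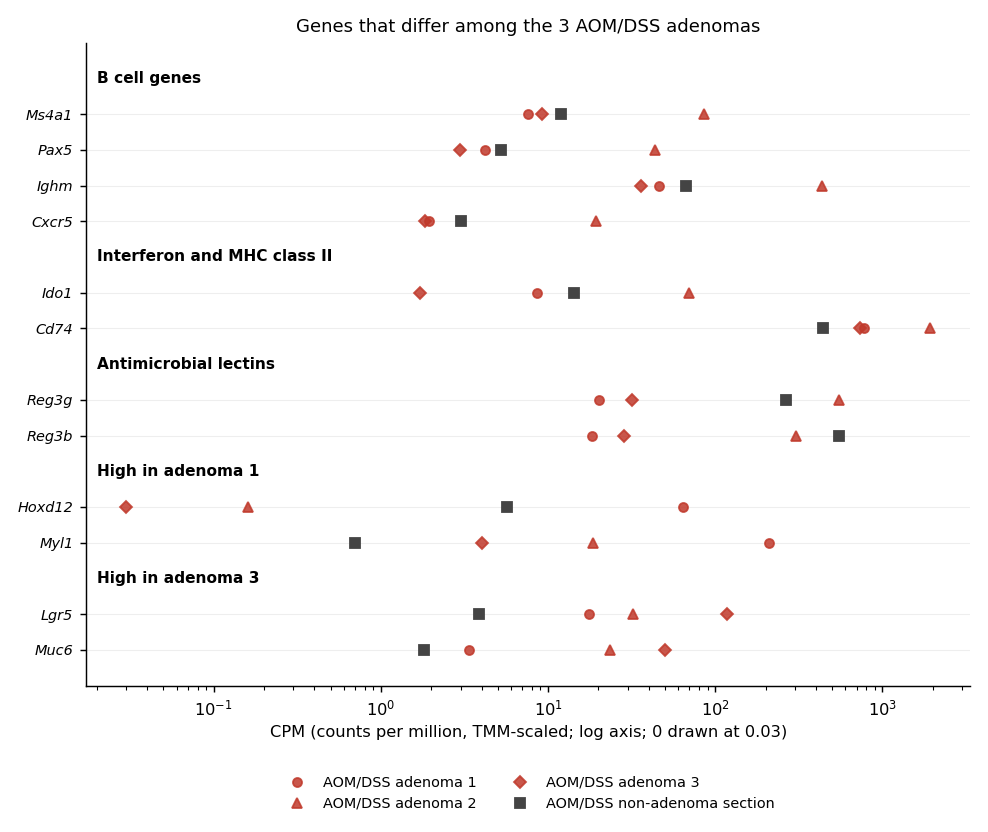
Level of 12 genes that differ among the 3 AOM/DSS adenomas, in CPM on a log axis, with red symbols for adenomas 1 to 3 and dark squares for the section; the 0 of Hoxd12 in adenoma 3 is drawn at 0.03. The B cell genes lie together for adenomas 1 and 3 and the section and apart for adenoma 2, as for Ms4a1 at 7.59, 85.9 and 9.17 against 12 CPM.

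Outside the lists, the highest log2 fold changes among called genes of moderate or high level included genes better known from other organs. Cubn, the receptor for vitamin B12 bound to intrinsic factor in ileum and kidney, stood at 8.15, 10.6 and 19.3 CPM in the adenomas, against 0.600 CPM in the section (4.39 ± 0.82). Pkhd1, the fibrocystin gene of kidney and bile duct cilia, stood at 47.8, 24.4 and 36.3 CPM in the adenomas, against 2.25 CPM in the section (4.0 ± 0.53, adjusted p = 0.0272). Cyp21a1, the steroid 21-hydroxylase of the adrenal gland, stood at 45.4, 20.8 and 23.1 CPM in the adenomas, against 1.80 CPM in the section (4.04 ± 0.67). The lowest adenoma was over 10-fold above the section for all 3. Tgm4, a prostate transglutaminase, Lemd1, Fgf3, a fibroblast growth factor, and R3hdml rose by 4.15, 4.05, 3.95 and 3.88. Lamp2, a lysosomal membrane protein, was among the most abundant genes that rose, at 810.4, 675 and 703 CPM in the adenomas, against 218 CPM in the section (1.74 ± 0.25), as was Ets2, a transcription factor (1.11 ± 0.21).

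Changes in AOM/DSS adenomas were set beside those of ApcMin/+ adenomas, each against its own section. Of the 409 genes that rose in AOM/DSS adenomas, 334 (81.7%) also rose in ApcMin/+ adenomas, which is 19.3% of the 1731 that rose there. Of the 453 that fell, 229 (50.6%) also fell, which is 21.0% of 1093. Over all 17218 genes tested, 1731 rose and 1093 fell in ApcMin/+ adenomas. Both sets of calls came from the same fit, in which the models share each gene's estimate of spread. The overlap is therefore not that of independent tests, and the part of the shared spread in it was not tested. Among the 862 called genes 25 had the opposite sign in ApcMin/+ adenomas. The difference between the 2 changes was tested gene by gene with edgeR: 0 of 17218 genes passed (0%), with a smallest adjusted p of 0.112 and 1369 genes at an unadjusted p under 0.05, and DESeq2 called 180. The differences below are therefore given with unadjusted p-values from edgeR, and none passed the adjustment over all genes.

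Apcdd1 had a smaller fold change in AOM/DSS than in ApcMin/+ adenomas. Apcdd1 changed by 2.60 ± 0.31 in AOM/DSS and by 6.81 ± 0.41 in ApcMin/+, a difference of -4.20 ± 0.42 (SE, unadjusted p = 2.54e-05, adjusted p = 0.138). Its levels were 51.1, 68.1 and 69.9 CPM in the adenomas, against 10.4 CPM in the section of AOM/DSS mice, and 319, 222 and 251 CPM in ApcMin/+ adenomas, against 2.35 CPM in the ApcMin/+ section. The AOM/DSS adenomas were lower, and their section higher, than those of the ApcMin/+ model. Rnf43 and Myc differed by -0.49 ± 0.43 and 0.18 ± 0.24, with unadjusted p-values of 0.291 and 0.480.

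The matrix genes Fn1 and Tnc and the stress gene Hspb1 fell in AOM/DSS adenomas and had positive fold changes in ApcMin/+ adenomas. Fn1 changed by -1.52 ± 0.19 in AOM/DSS and by 0.92 ± 0.21 in ApcMin/+, with 1114, 1014 and 1113 CPM in ApcMin/+ adenomas, against 570.1 CPM in the ApcMin/+ section (difference -2.44 ± 0.29, unadjusted p = 8.26e-05, adjusted p = 0.189). AOM/DSS adenomas lay below their section and ApcMin/+ adenomas above theirs. Tnc, with 165, 252 and 240.3 CPM in ApcMin/+ adenomas, against 135 CPM in the ApcMin/+ section, differed by -2.80 ± 0.51 (unadjusted p = 0.00101), and Hspb1, a small heat shock protein, by -3.20 ± 0.46 (unadjusted p = 0.00024). Hspb1 stood at 11, 16.8 and 20.5 CPM in the adenomas, against 77.1 CPM in the section of AOM/DSS mice. Itga5 and Hoxa13 differed by -2.13 ± 0.26 (unadjusted p = 8.05e-05) and -1.71 ± 0.30 (unadjusted p = 0.000745), with -0.07 ± 0.18 and -0.52 ± 0.20 in ApcMin/+ adenomas. Smooth muscle genes had a median of -4.05 in AOM/DSS and -2.36 in ApcMin/+ adenomas, and their part in these differences was not tested. The ApcMin/+ adenomas were uneven for such genes. Myl9 stood at 87.8, 86.9 and 186 CPM in ApcMin/+ adenomas, against 641 CPM in the ApcMin/+ section, with adenoma 3 the highest adenoma. Acta2, Cnn1 and Tpm1 were also highest in adenoma 3 among the ApcMin/+ adenomas. The part of that library in the gap between the medians was not tested.

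Pyy was called in AOM/DSS adenomas and not in ApcMin/+ adenomas. Pyy had 95.1, 176 and 68.8 CPM in ApcMin/+ adenomas, against 167 CPM in the ApcMin/+ section (-0.56 ± 0.60), a difference of -5.40 ± 1.00 (unadjusted p = 0.00109). Pkhd1, Apoe and Cx3cr1 rose in AOM/DSS adenomas and were not called in ApcMin/+ adenomas, with differences of 3.35 ± 0.61, 1.48 ± 0.35 and 1.55 ± 0.37, and unadjusted p-values of 0.00104, 0.00401 and 0.00468. In the other direction, Ptgs2, cyclooxygenase 2, stood at 8.20, 11.2 and 9.72 CPM in the adenomas, against 7.16 CPM in the section of AOM/DSS mice without a call (0.44 ± 0.44), and at 30.8, 68.3 and 56.2 CPM in ApcMin/+ adenomas, against 5.22 CPM in the ApcMin/+ section, where it rose (3.31 ± 0.53). The difference was -2.87 ± 0.63 (unadjusted p = 0.0028, adjusted p = 0.415).

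**Figure D5:**
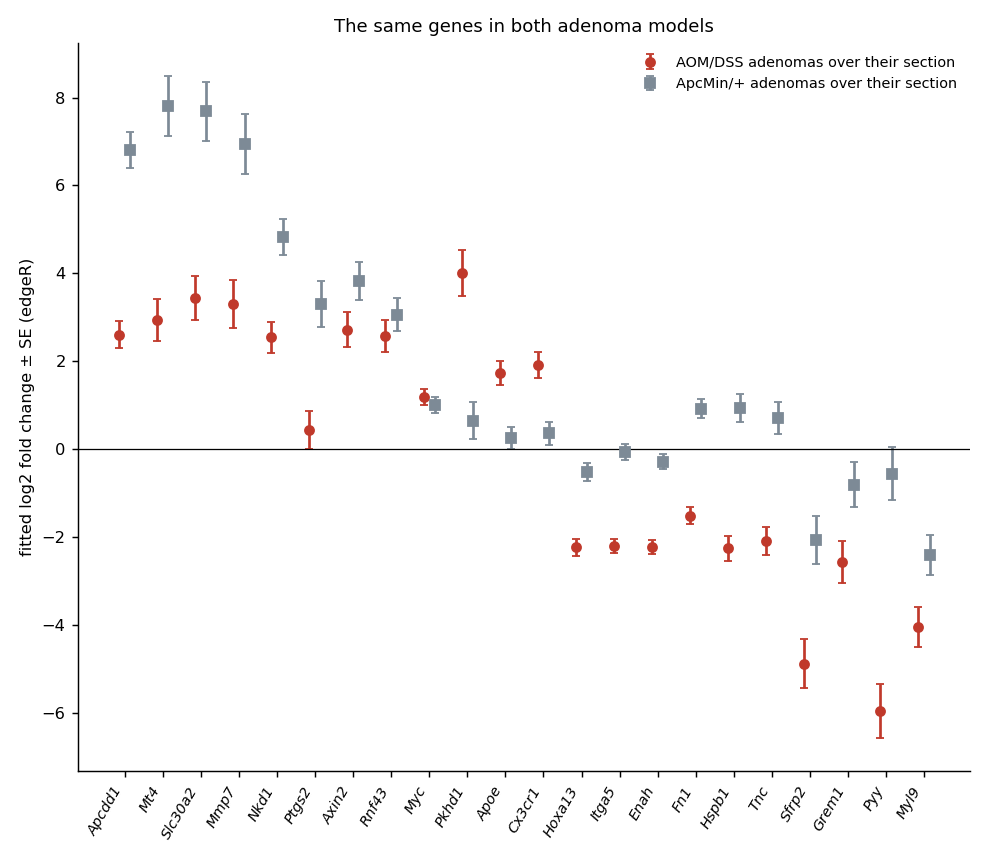
Fitted log2 fold change of 22 genes in AOM/DSS adenomas over their section (red circles, left of each pair) and in ApcMin/+ adenomas over theirs (grey squares), with SE bars from edgeR. Rnf43 and Myc lie close in both models, while Fn1, Hspb1 and Tnc lie below 0 in AOM/DSS and above 0 in ApcMin/+, a difference that did not pass the adjustment over all genes.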

How the data were processed

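RNA of 8 whole-tissue colon samples was sequenced as single reads from TruSeq libraries, per the labels' protocols. The authors deposited estimated counts per gene, FPKM (per gene length and library size) and fold ratios of each adenoma to the section of its model, per the file headers. The fold ratios, which the authors computed from FPKM, were not used here. Per the submitters' processing notes, reads were placed on mm9. For the aligner, counter and strand setting nothing is given in the sources used here. Without strand, overlapping antisense genes cannot be told apart. The lowest deposited estimated count and FPKM was 1 in every library. Over 89 genes of low count, the median SD between libraries of the log2 ratio of FPKM to count was 0.122 with 1 subtracted from both, against 0.375 as deposited. So 1 was subtracted and the counts were rounded to whole numbers.

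edgeR 4.0.16 (R 4.3.3) was run with TMM scaling, its filter for low counts over the 4 groups of the 2 models (minimum count 10, minimum total 15) and the quasi-likelihood test, which left 17218 of 31189 genes and 4 residual degrees of freedom. The lone section of each model is assumed to vary like the adenomas. P-values in the text are from edgeR unless another tool is named, two-sided, and adjusted over all genes tested by the Benjamini-Hochberg method. Standard errors were taken from the fold change and its F statistic. The same model tested the change in AOM/DSS minus that in ApcMin/+. Alternatives were DESeq2 1.42.0, limma 3.58.1 on log2(FPKM + 0.5), other scalings and filters, the AOM/DSS libraries alone, a replicate block and each adenoma left out. The code was tested on simulated data. Depth was 18156741 to 22719895 counts, and limits on counts of 0 cover counting error only.

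The 46 gene lists and the named genes were chosen with earlier results of these data known. Genes were named by level and fold change (the 12 highest and 12 lowest fold changes above a mean log2 CPM of 2, and the 6 most abundant called genes each way), as up to 4 members with the smallest p per role of a list, and as the 12 with the widest spread among adenomas at 20 CPM or more. The text names part of these. Other called list members, Enah, Itga5, Thbs1, Srf, Ptgs2, Muc2, Slc26a3 and the B cell genes were chosen after their values were seen, and Epcam and Cdh1 as a check of the tissue. Promoter windows came from RefSeq (GRCm38.p6) and were matched by symbol.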

Additional observations from a re-analysis of the deposited data

How the results depend on the processing

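Of the 409 genes called higher and 453 called lower, the range with 1 adenoma of either model left out was 0 to 800 higher and 0 to 1255 lower. For the difference between models, 0 genes were called in each of these fits. DESeq2 called 1438 higher, 1457 lower and 180 for the difference. The 4 AOM/DSS libraries alone, with 2 residual degrees of freedom, gave 149 higher and 647 lower, so 18.7% of calls were higher, against 47.4% with all 8. limma on FPKM gave 407 higher (61.8% of calls), 252 lower and 1 for the difference, and with a pseudocount of 0.1 it gave 448 (69.8%), 194 and 4. Without a filter limma gave 308 higher (37.5%), 514 lower and 302 for the difference. The cause of these shifts was not tested. DESeq2 size factors gave 371 higher and 616 lower, upper quartile scaling 350 and 560, no filter 409 and 474, and counts as deposited 497 and 611, with 0 for the difference in each. At a fold change of at least 2, 779 calls were left.

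Adenoma numbers are shared by both models but mark no shared animal in the labels, and a fit with the replicate block also gave 0 genes for the difference. The block does not bear on calls against the single section. The pairing of numbers was not used further.

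Of 158 called genes followed one by one, 0 reversed under any alternative that tested them. All alternatives used the same AOM/DSS section and libraries that gave the calls, so they are no independent check of direction. With the 4 AOM/DSS libraries alone 157 were tested, and by limma 156 with either pseudocount and the filter. Those that lost the adjusted threshold were 158, 93 and 153 without AOM/DSS adenoma 1, 2 or 3, 122, 153 and 0 without ApcMin/+ adenoma 1, 2 or 3, 3 under each other scaling, 0 under DESeq2, with the counts as deposited and without a filter, 53 with the 4 AOM/DSS libraries alone, and by limma 52, 49 with the lower pseudocount and 80 without a filter. Reversals were limited, among the genes followed, to uncalled ones. Hoxd12 had 1.91, with 1 adenoma left out -6.18 (adenoma 1) to 2.50 (adenoma 3), by limma -0.69 with either filter and -1.85 with the lower pseudocount. Ido1 had 0.88, from -1.48 (without adenoma 2) to 1.44 (without adenoma 3), and by limma -0.31 with either filter and -0.40 with the lower pseudocount. Reg3g had -0.39, but 0.14 without adenoma 1, 0.12 without adenoma 3 and -3.35 without adenoma 2. Over the adenomas left out, the B cell genes ranged from -0.51 to 1.99 (Ms4a1), -0.54 to 2.19 (Pax5), -0.71 to 1.83 (Ighm), -0.67 to 1.82 (Cxcr5) and -0.70 to 1.85 (Pou2af1), each lowest without adenoma 2. Counting lists without adenoma 2 was chosen after its B cell and interferon genes were seen. Scaling to epithelial genes turned the median of the glycolysis list to 0.01 and of no other list. Depth limits genes near 3 counts, such as Neurog3 in the adenomas.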

Other observations

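Among prostaglandin genes 1 rose and 1 fell. Abcc4, an exporter of prostaglandins, stood at 128, 140.2 and 149 CPM in the adenomas, against 40.8 CPM in the section (1.77 ± 0.28), and Slco2a1, which takes them up for breakdown, at 24.1 ± 3.84 CPM in the adenomas, against 60.2 CPM in the section (SD, n = 3), a log2 fold change of -1.32 ± 0.28. For both genes the adenomas lay on 1 side of the section. Of 22 genes of the pathway no other was called. Of 12 synthesis genes 7 had every adenoma above the section and 4 below it, against 41.2% and 31.3% of all genes tested. Among 12 tuft cell genes Avil, an actin-binding protein, rose, at 123, 95.9 and 190.4 CPM in the adenomas, against 15.5 CPM in the section (3.14 ± 0.53), and Trpm5, a taste transduction channel, fell, at 0.257, 0.320 and 0.426 CPM in the adenomas, against 2.85 CPM in the section (-3.07 ± 0.43).

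Among 28 epithelial antimicrobial and acute phase genes 3 rose and 2 fell. Their median was -0.42, but -0.09 without adenoma 1, -0.78 without adenoma 2 and -0.26 without adenoma 3. Hp, haptoglobin, stood at 12.5, 19.1 and 23.9 CPM in the adenomas, against 0.851 CPM in the section (4.43 ± 0.79), Saa3, a serum amyloid A, at 34.3, 26.6 and 31.8 CPM in the adenomas, against 2.90 CPM in the section (3.41 ± 0.41), and Wfdc18, a whey acidic protein family member, at 413, 546 and 424 CPM in the adenomas, against 64.5 CPM in the section (2.84 ± 0.57). The adenomas were above the section for all 3. Pla2g5, a secreted phospholipase, fell, at 5.32, 6.56 and 5.20 CPM in the adenomas, against 57.9 CPM in the section (-3.35 ± 0.46). Plin4, a lipid droplet protein of adipocytes, was the 1 called gene of 10 adipocyte markers, at 0.386, 0.587 and 0.853 CPM in the adenomas, against 20.3 CPM in the section (-5.05 ± 0.94). The haemoglobin and other blood genes, 7 in number, had a median of -0.38 with 0 called by edgeR. At an unadjusted p under 0.05, 1 of them was higher and 1 lower, against 5142 of all 17218 genes tested in either direction.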
